A study of Mus musculus with 22 samples.

Results

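The 10 genes described here encode one growth factor pathway at its outer end: the ligand insulin-like growth factor 1 (Igf1), its receptor (Igf1r), the adaptors Irs1 and Irs2 that carry the receptor's signal into the cell, and the binding proteins Igfbp2, Igfbp3, Igfbp4, Igfbp5, Igfbp6 and Igfbp7. They were chosen by exact gene symbol, and all 10 were found among the 34866 gene identifiers of the culture tables and the 23911 of the cartilage table. RNA was measured in 22 mouse samples. Control mice carried Dnmt1 alleles labelled flox, and the mutant (cKO) carried Prrx1-Cre;Dnmt1 flox/flox, so that Dnmt1, which copies DNA methylation onto newly made strands, was deleted where the Prrx1 driver is active, the limb bud mesenchyme and its descendants. Primary chondrocytes from knee articular cartilage of mice at postnatal days 3 to 5 were sampled untreated (day 0; 3 control and 3 cKO samples) or after 3 days of bone morphogenetic protein 2 (BMP2, labelled 100 ng/µl), which drives chondrocyte differentiation (day 3; 4 control and 4 cKO samples). Cartilage from mice at postnatal day 5, cleared of connective tissue with collagenase, gave 4 control and 4 cKO samples, 2 of each sex per genotype. The labels call the samples biological replicates for the cultures, without saying which animals they came from, so p-values measure the spread between these samples.

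IGF1 is secreted and binds IGF1R, a receptor tyrosine kinase that phosphorylates IRS adaptors and through them switches on PI3 kinase, AKT and mTOR. Binding proteins hold IGFs outside the cell and can block or prolong their action, and proteases that cut them release the ligand. In the growth plate the pathway is known for driving chondrocyte growth and the lengthening of bones, with IGF1 coming both from the circulation and from local cells.

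Levels are given in CPM, each count divided by its library's total and put on a common scale, with edgeR's TMM factors, across the 14 cultures together or across the 8 cartilage samples together, so that culture and cartilage levels are not on 1 scale. Library totals were 41749546 to 51741669 counts at day 0, 14434320 to 18918905 at day 3 and 1100198 to 1888896 in cartilage. Dnmt1 checked the labels: its level was 153 to 166 CPM in control and 26.8 to 32.8 CPM in cKO cultures at day 0, 63.3 to 81.5 against 10.9 to 35.7 CPM at day 3, and 34.5 to 48.6 against 11.8 to 14.3 CPM in cartilage. The cKO day 3 replicate 4 stood apart: the summed level of 8 chondrocyte markers was 1114 CPM there and 10900 to 15440 CPM in the other 3 cKO replicates, while the summed level of 6 pericyte and smooth muscle markers was 2321 CPM against 765 to 840 CPM. In control day 3 cultures the chondrocyte sum was 81680 to 100600 CPM, and at day 0 it was 127100 to 134500 CPM in control and 47490 to 57650 CPM in cKO cultures. Skeletal muscle markers (8 genes) summed to 6.58 to 7.42 CPM in control and 42.6 to 54.6 CPM in cKO cultures at day 0, and to 1.37 to 1.80 against 119 to 1491 CPM at day 3. Of the 11 lists of cell type markers, the summed levels of cKO and control libraries did not overlap for 8 at day 0 (4 higher in cKO), for 8 at day 3 (7 higher) and for 4 in cartilage (1 higher). A sum follows its most abundant genes and can differ from the rest of its list. By the edgeR test described below, the chondrocyte list had 8 genes lower of 8 on both days. The macrophage and osteoclast list, lower in sum at day 0, had 3 genes higher and 1 lower of 5 tested. The fibroblast and perichondrium list, higher in sum at day 3, had 2 higher and 1 lower of 7. The endothelial list had only 1 gene tested on each day. At day 3 hypertrophic chondrocyte markers (6 genes) summed to 405 to 829 CPM in control and 3974 to 4985 CPM in cKO cultures, and osteoblast markers (5 genes) to at most 77.1 against 152 to 388 CPM. The hypertrophic genes did not all go with their sum: by the same test 4 were higher and 2 lower at day 3. In cartilage 5 of these 6 genes were lower and 0 higher in cKO samples. Endothelial (6 genes) and red blood cell (5 genes) markers summed to at most 2.07 and 0.264 CPM in any culture. In cartilage the chondrocyte sum was 60570 to 91880 CPM in control and 27230 to 57450 CPM in cKO samples, and the macrophage and osteoclast sum (6 genes) was 141 to 480 against 66.3 to 133 CPM. All 4 control libraries were in one library pool and all 4 cKO libraries in the other, and pool and genotype cannot be told apart. The part that the mix of cells has in any result was not tested, and in bulk RNA fewer cells of a type and less RNA per cell cannot be told apart.

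In cKO cultures, set against control cultures, the binding proteins differed in different directions. Igfbp6 rose at both days, Igfbp4 fell at day 0 and rose at day 3, and Igfbp5 fell at day 3. The adaptor Irs1 fell at both days. The genotype effect on Igf1 and Igf1r did not pass the test in any of the 3 settings when each was fitted alone on its main counts. In the alternative, estimated counts of the cartilage libraries Igf1r was called at -0.53 (edgeR adjusted p 0.0343). With the spread shared over all 14 cultures Igf1 and Igf1r were both called at day 3, Igf1 at 1.70 (edgeR adjusted p 0.0320) and Igf1r at 0.52 (edgeR adjusted p 0.0345). Here and below, called means that edgeR's quasi-likelihood test gave a p under 0.05 after Benjamini-Hochberg adjustment over all genes tested. At day 0 the test called 5 of the 10 genes, 3 higher and 2 lower, against 64.5% of all genes tested (33.0% higher and 31.6% lower). At day 3 it again called 5 of 10, 3 higher and 2 lower, against 48.1% of all genes (25.5% higher and 22.6% lower). Of the 9 genes that could be tested in cartilage 0 were called, against 6.19% of all genes (3.15% higher and 3.04% lower). The groups did not overlap for 5 members at day 0 and 6 at day 3, against 70.4% and 47.9% of all genes. The share of members called was below that of all genes at day 0 and close to it at day 3. The median log2 fold change (cKO over control) of the members was 0.01 at day 0, 0.87 at day 3 and -0.04 in cartilage, and that of all genes tested was 0.01 in each. Without cKO day 3 replicate 4, Igf1, Igf1r, Irs2 and Igfbp7 at day 3 were 0.32, 0.24, -0.21 and 0.64, against 1.73, 0.54, 0.19 and 2.16 with it. Igfbp2 was 1.58 without it, against 1.55. The members' median was not recomputed without that library.

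**Figure D1:**
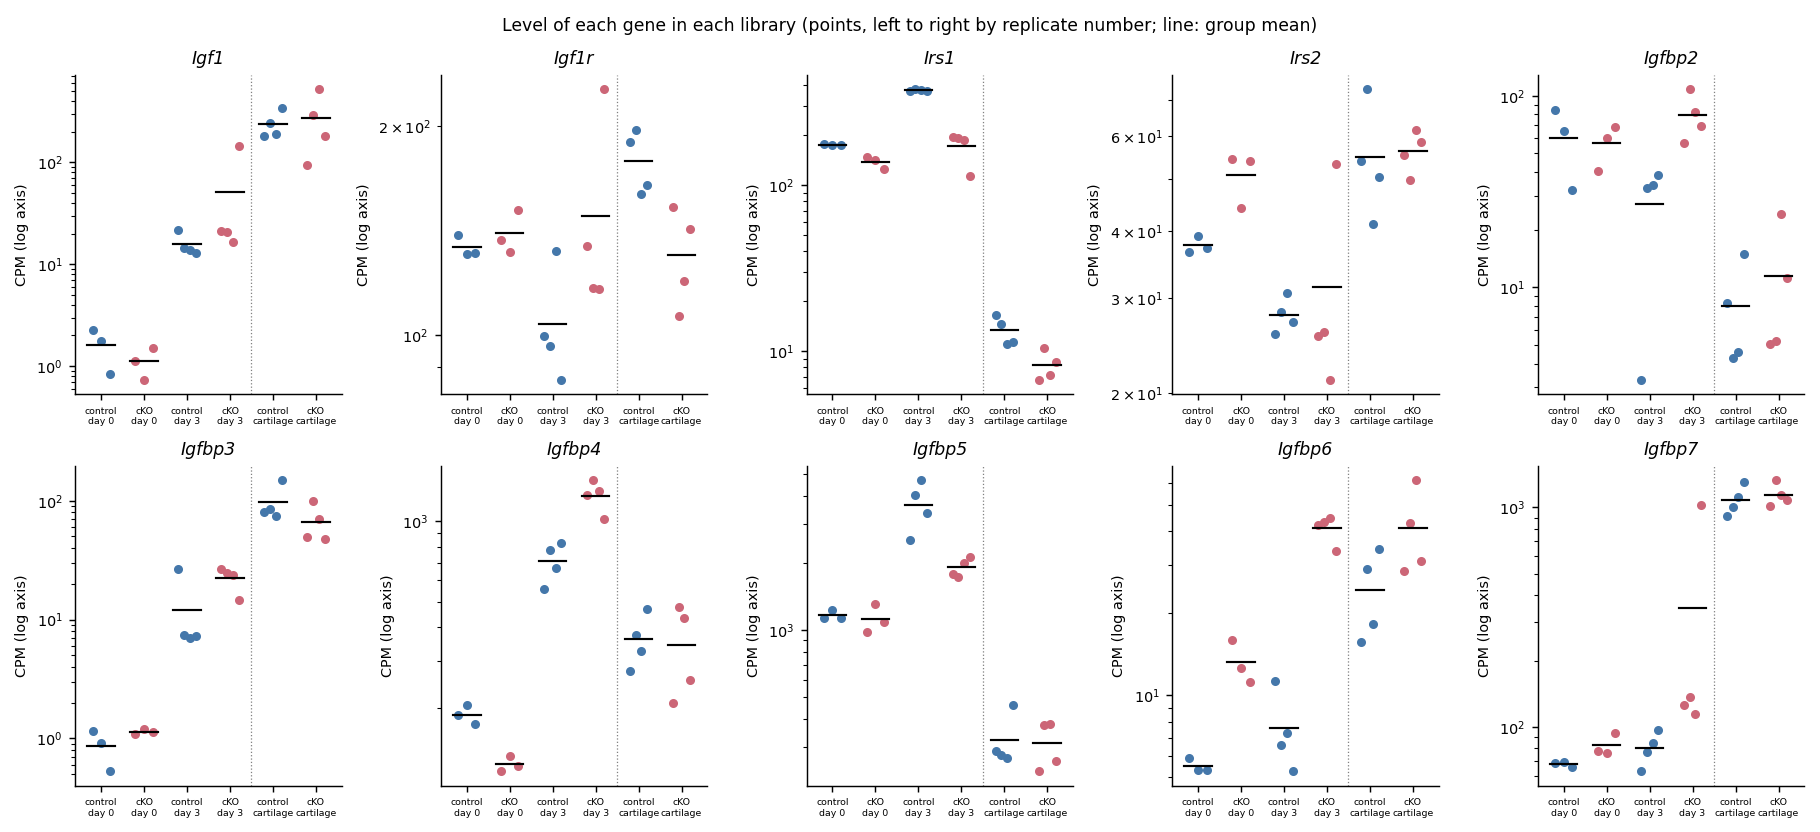
Level of each gene in each library, in CPM on a log axis, with the 3 or 4 replicates of each group as points (blue, control; red, cKO) and the group mean as a line; the dotted line separates cultures from cartilage, which were scaled separately. Igfbp6 lies higher in every cKO culture than in every control culture of the same day, and Irs1 lies lower.

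The members Irs1, Igfbp4, Igfbp5 and Igfbp6 had a genotype effect at day 3 that differed from that at day 0 by a test of the difference itself. Since Dnmt1 acts on cytosines followed by guanine (CpG), the 250 bases before the gene start that RefSeq's promoter set uses are shown, from GRCm38.p6, 5′ to 3′ on the gene's own strand, with each CpG in capitals. No methylation was measured here. That start was the GENCODE gene start for Igfbp4, lay 19 bases inside the gene for Igfbp5, and lay upstream of it by 23 bases for Irs1 and by 176 bases for Igfbp6, so that the Igfbp6 window stops short of the GENCODE start. The first 30 bases after RefSeq's start are in no GENCODE transcript of Irs1 or Igfbp6.
Irs1: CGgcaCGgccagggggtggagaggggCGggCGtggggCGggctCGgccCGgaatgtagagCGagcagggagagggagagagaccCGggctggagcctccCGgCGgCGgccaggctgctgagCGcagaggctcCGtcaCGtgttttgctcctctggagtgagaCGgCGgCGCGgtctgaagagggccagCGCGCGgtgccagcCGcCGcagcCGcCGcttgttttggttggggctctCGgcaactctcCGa
Igfbp4: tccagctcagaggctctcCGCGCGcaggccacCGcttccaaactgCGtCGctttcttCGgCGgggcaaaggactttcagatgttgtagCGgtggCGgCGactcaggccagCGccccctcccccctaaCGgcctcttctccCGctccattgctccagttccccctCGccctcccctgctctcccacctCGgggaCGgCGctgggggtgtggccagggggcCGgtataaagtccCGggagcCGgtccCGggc
Igfbp5: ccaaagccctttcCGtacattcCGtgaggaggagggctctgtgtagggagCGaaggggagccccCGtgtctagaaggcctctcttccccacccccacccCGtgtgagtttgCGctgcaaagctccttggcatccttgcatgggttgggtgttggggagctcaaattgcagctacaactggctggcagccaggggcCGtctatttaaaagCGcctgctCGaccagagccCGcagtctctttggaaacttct
Igfbp6: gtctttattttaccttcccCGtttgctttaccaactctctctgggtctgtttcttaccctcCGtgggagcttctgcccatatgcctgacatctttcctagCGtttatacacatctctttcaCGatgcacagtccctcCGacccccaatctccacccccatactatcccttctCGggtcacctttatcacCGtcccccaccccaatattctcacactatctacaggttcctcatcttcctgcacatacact
The Irs1 window (chr1:82291440-82291689, minus strand) held 28 CpG, more than 92.4% of the 32851 windows of this length in the RefSeq set, whose median was 6. That of Igfbp4 (chr11:99040994-99041243, plus strand) held 22 and that of Igfbp5 (chr1:72874866-72875115, minus strand) held 10. The Igfbp6 window (chr15:102143936-102144185, plus strand) held 7, the fewest of these 4 windows, and does not show the 176 bases next to the GENCODE start. The letters TATAAA, searched on both strands, occurred once each in the Igfbp4 and Igfbp6 windows and in 12.4% of all windows. CCAAT, likewise searched on both strands, occurred 2 times in the Igfbp6 window and in 33.8% of all windows. Among the other members the CpG count ran from 5 for Igf1, whose window lies inside the GENCODE gene, to 42 for Igf1r.

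Igf1, the ligand (ENSMUSG00000020053; chromosome 10, 87858265 to 87937042), was scarce in untreated cultures. Controls 1 to 3 gave 2.25, 1.75 and 0.832 CPM, against 1.13, 0.735 and 1.49 CPM in the cKO libraries, in the same order of replicates as in all lists that follow. The groups overlapped, and the log2 fold change of -0.52 (SE 0.36, adjusted p 0.236 by edgeR) was not called. Without control replicate 3, the lowest control, it was -0.84 with an edgeR adjusted p of 0.0347, and without control replicate 1, the highest, it was -0.21 with an edgeR adjusted p of 0.658. After BMP2 the 4 controls gave 21.6, 14.3, 13.9 and 12.8 CPM, against 21.4, 20.7, 16.4 and 144.7 CPM in cKO cultures. A single cKO library thus lay far above the rest, and the other 3 lay within the control range. The log2 fold change of 1.73 (SE 0.72, adjusted p 0.0779 by edgeR) was 0.32 without that library and 2.03, with an edgeR adjusted p of 0.0467, without cKO replicate 3.

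Igf1 rose from day 0 to day 3 in both genotypes. The log2 change was 3.27 (SE 0.78, edgeR adjusted p 0.00290) in control and 5.49 (SE 0.85, edgeR adjusted p 1.10e-04) in cKO cultures, and 4.11 in cKO cultures without replicate 4. The difference between these changes, 2.22 (SE 1.05, edgeR adjusted p 0.172), was not called. Igf2, the other IGF ligand, was far more abundant in the untreated cultures (12510 to 13340 CPM in control and 1857 to 2379 CPM in cKO) and was lower after BMP2 (1680 to 3923 against 123 to 1481 CPM).

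Igf1r, the receptor (ENSMUSG00000005533; chromosome 7, 67952827 to 68233668), was not called for genotype at either day. It stood at 139, 131 and 131 CPM in control and 137, 132 and 151 CPM in cKO replicates at day 0, with overlapping groups and a log2 fold change of 0.06 (SE 0.05, adjusted p 0.300 by edgeR). After BMP2 controls had 99.6, 96.5, 132 and 86.2 CPM and the cKO replicates 134, 117, 116 and 226 CPM. Here too cKO replicate 4 was the highest, the groups overlapped, and the log2 fold change of 0.54 (SE 0.24, adjusted p 0.0980 by edgeR) was 0.24 without it. Its change from day 0 to day 3 was -0.37 (SE 0.21, edgeR adjusted p 0.145) in control and 0.08 (SE 0.21, edgeR adjusted p 0.744) in cKO cultures. Without cKO day 3 replicate 4 in the shared fit, the control change of -0.37 had an edgeR adjusted p of 0.0101 and the cKO change was -0.19.

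Irs1 (ENSMUSG00000055980; chromosome 1, 82233101 to 82291416), the adaptor that links the receptor to PI3 kinase, fell in cKO cultures at both days. At day 0 it measured 176, 175 and 174 CPM in control replicates and 148, 142 and 126 CPM in cKO replicates, for which the log2 fold change was -0.34 (SE 0.05, edgeR adjusted p 4.35e-04). By day 3 controls had 371, 379, 376 and 368 CPM and the cKO replicates 196, 193, 188 and 113 CPM, a log2 fold change of -1.10 (SE 0.16, adjusted p 6.73e-04 by edgeR). All cKO libraries were below all controls on each day, and the 4 controls at day 3 lay between 368 and 379 CPM. In control cultures Irs1 rose from day 0 to day 3 by 1.10 on the log2 scale (SE 0.15, edgeR adjusted p 4.44e-05), and in cKO cultures the change of 0.32 (SE 0.15, edgeR adjusted p 0.0734) was not called. The difference of -0.78 (SE 0.21, edgeR adjusted p 0.0220) was called, but not in 5 of 14 fits that each left out 1 library (control day 0 replicate 1, 2 or 3, or cKO day 0 replicate 1 or 2), where the adjusted p was up to 0.0591 and the value -0.78 to -0.73. The cKO change from day 0 to day 3 was 0.48, with an edgeR adjusted p of 4.40e-06, without cKO day 3 replicate 4.

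Irs2 (ENSMUSG00000038894; chromosome 8, 10984681 to 11008458), the second adaptor, went the other way from Irs1 at day 0. It measured 36.6, 39.1 and 37.2 CPM in control and 54.3, 44.1 and 53.9 CPM in cKO replicates, with no overlap and a log2 fold change of 0.43 (SE 0.08, adjusted p 9.85e-04 by edgeR). After BMP2 they overlapped: 25.8, 28.2, 30.8 and 27.1 CPM in control and 25.6, 26.0, 21.2 and 53.3 CPM in cKO replicates. The log2 fold change was 0.19 (SE 0.28, edgeR adjusted p 0.592) with all libraries and -0.21 without cKO replicate 4, the highest. From day 0 to day 3 Irs2 fell by 0.69 on the log2 scale in cKO cultures (SE 0.24, edgeR adjusted p 0.0215), a call that was lost (adjusted p up to 0.0635) when any of cKO day 0 replicates 1 and 3 or cKO day 3 replicates 1, 2 and 3 was left out. Without cKO day 3 replicate 4 the fall was -1.06, the control change of -0.43 was called (edgeR adjusted p 8.06e-04, against 0.142 with it), and the difference between genotypes was -0.64 (edgeR adjusted p 0.00297, against -0.26 and 0.649 with it). The day 0 calls of Irs1 and Irs2 were lost when the spread was shared over all 14 cultures, with edgeR adjusted p of 0.0992 and 0.186 at log2 fold changes of -0.34 and 0.43.

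**Figure D2:**
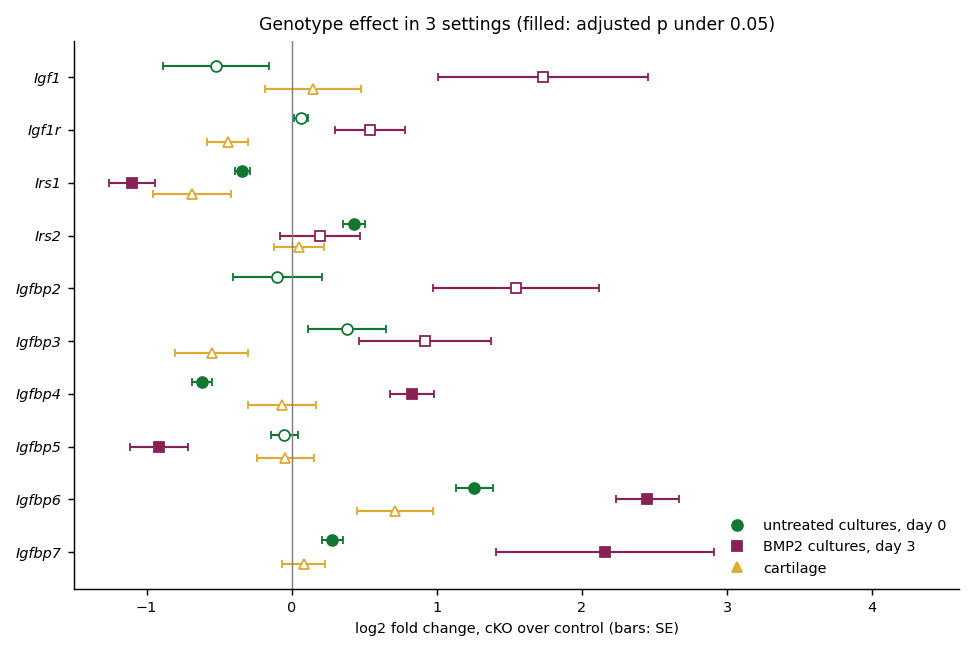
Log2 fold change of cKO over control for each gene, with bars of 1 SE, in untreated cultures (3 against 3 samples), BMP2 day 3 cultures (4 against 4) and cartilage (4 against 4); filled symbols have an adjusted p under 0.05. Igfbp4 lies on opposite sides of 0 at day 0 and day 3, and no cartilage symbol is filled.

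Per kilobase of exon, Igfbp5 was the most abundant member in all cultures but 2, cKO day 3 replicate 2, where Igfbp4 was above it, and cKO day 3 replicate 4, where Igfbp7 was. Mean Igfbp5 was 194 CPM per kb in control and 188 in cKO cultures at day 0, and 607 and 318 at day 3. Igfbp7, Igfbp4 and Igfbp2 followed at day 0 in control cultures (56.1, 42.7 and 32.7 CPM per kb), then Irs1 (19.1), Igf1r (7.97), Irs2 (5.95) and Igfbp6 (4.95), with Igfbp3 (0.277) and Igf1 (0.163) the lowest. In that group the replicates of neighbours in this order overlapped for Igfbp4 with Igfbp2 (SD 3.59 and 14.2), for Igfbp2 with Irs1 and for Igfbp3 with Igf1 (SD 0.101 and 0.0727), and did not overlap for the other 6 pairs of neighbours. At day 3 in cKO cultures Igfbp5, Igfbp7 and Igfbp4 overlapped, as did Igfbp2 with Igfbp6, and each of Irs1, Igf1r, Igfbp3 and Igf1 overlapped with the next in the order, which ended with Irs2. By this measure Igf1r and Irs2 lay above Igfbp6 in the control cultures at day 0, but below its mean in each other culture group. In cKO cultures at day 0 Igfbp6 averaged 11.9 CPM per kb, Igf1r 8.34 and Irs2 8.03. In control cultures at day 3 the means were 6.84, 6.17 and 4.42, with replicates of Igfbp6 and Igf1r overlapping. In cKO cultures at day 3 Igfbp6 averaged 36.9 CPM per kb, Igf1r 8.84 and Irs2 4.99.

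Igfbp6 (ENSMUSG00000023046; chromosome 15, 102144362 to 102149511), a binding protein with a known preference for IGF2 over IGF1, had the largest called genotype effect among the members at both days. It had 5.88, 5.33 and 5.31 CPM in control and 15.9, 12.6 and 11.2 CPM in cKO replicates at day 0, a log2 fold change of 1.26 (SE 0.13, adjusted p 2.83e-05 by edgeR). The day 3 values were 11.3, 6.57, 7.27 and 5.28 CPM in control and 42.4, 43.4, 44.7 and 33.9 CPM in cKO replicates, a log2 fold change of 2.45 (SE 0.22, adjusted p 6.26e-05 by edgeR). The groups did not overlap on either day, and the call at day 3 held with cKO replicate 4 left out. In cKO cultures Igfbp6 rose by 1.64 from day 0 to day 3 (SE 0.20, edgeR adjusted p 1.92e-05), whereas the control change of 0.46 (SE 0.21, edgeR adjusted p 0.0781) was not called with all libraries and was 0.60 (edgeR adjusted p 0.0226) without control day 3 replicate 4 and 0.21 (edgeR adjusted p 0.279) without control day 3 replicate 1. Scaled by library totals alone it was called at 0.59 (edgeR adjusted p 0.0371). The difference of 1.17 (SE 0.29, edgeR adjusted p 0.0152) was called in all 14 fits with 1 library left out.

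Igfbp4 (ENSMUSG00000017493; chromosome 11, 99041244 to 99054392), a binding protein known to block IGF action until the protease pappalysin 1 cuts it, changed direction with the day. Control replicates had 187, 205 and 174 CPM at day 0 and cKO replicates 116, 132 and 121 CPM, a log2 fold change of -0.62 (SE 0.07, adjusted p 3.52e-05 by edgeR). After BMP2 the control replicates had 559, 778, 667 and 831 CPM and the cKO replicates 1254, 1423, 1295 and 1016 CPM, a log2 fold change of 0.83 (SE 0.15, adjusted p 0.00221 by edgeR). Every cKO library was below every control at day 0 and above every control at day 3. Igfbp4 rose from day 0 to day 3 in both genotypes, by 1.91 in control (SE 0.15, edgeR adjusted p 3.88e-07) and by 3.34 in cKO cultures (SE 0.16, edgeR adjusted p 1.15e-08) on the log2 scale. The difference of 1.43 (SE 0.20, edgeR adjusted p 5.65e-04) was called in all 14 fits with 1 library left out, at 1.33 to 1.52.

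Igfbp5 (ENSMUSG00000026185; chromosome 1, 72857932 to 72874884), a binding protein that sits in the extracellular matrix, differed by genotype after BMP2. At day 0 it measured 1131, 1233 and 1130 CPM in control and 985, 1305 and 1092 CPM in cKO replicates, with overlapping groups and a log2 fold change of -0.05 (SE 0.09, adjusted p 0.656 by edgeR). By day 3 the control replicates had reached 2542, 4013, 4679 and 3345 CPM and the cKO replicates 1788, 1728, 1993 and 2133 CPM. All cKO libraries were then below all controls, with a log2 fold change of -0.91 (SE 0.20, adjusted p 0.00528 by edgeR). The rise from day 0 to day 3 was 1.65 in control (SE 0.18, edgeR adjusted p 8.14e-06) and 0.76 in cKO cultures (SE 0.18, edgeR adjusted p 0.00223). The difference of -0.88 (SE 0.25, edgeR adjusted p 0.0273) was called, but not in 7 of 14 fits that each left out 1 library (control day 0 replicate 1, 2 or 3, cKO day 0 replicate 2 or 3, control day 3 replicate 2 or cKO day 3 replicate 2), where the adjusted p was up to 0.0767. Igfbp5 at day 0 was -0.17 with an edgeR adjusted p of 0.0372 without cKO replicate 2 and 0.035 without cKO replicate 1.

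Igfbp7 (ENSMUSG00000036256; chromosome 5, 77349240 to 77408041), a secreted relative of the family with low affinity for IGFs, was higher in cKO cultures at both days. It had 68.7, 69.2 and 65.5 CPM in control and 77.9, 76.2 and 93.5 CPM in cKO replicates at day 0, a log2 fold change of 0.28 (SE 0.07, adjusted p 0.00697 by edgeR) that was not called with the spread of all 14 cultures (edgeR adjusted p 0.765). At day 3 it had 62.9, 77.2, 84.9 and 96.6 CPM in control and 126, 137, 115 and 1022 CPM in cKO replicates, with no overlap. The log2 fold change of 2.16 (SE 0.75, adjusted p 0.0416 by edgeR) rested in size on cKO replicate 4: without it the value was 0.64, with an edgeR adjusted p of 0.00260. The call was lost when any 1 of the 4 controls was left out, with edgeR adjusted p of 0.0811 to 0.0984. The level in cKO replicate 4 stood beside the raised pericyte and smooth muscle sum given above, of which Acta2 alone made up 1812 of 2321 CPM, and of the 4 genes of that list that were tested at day 3, 1 was higher, 1 was lower and 2 were not called. The macrophage and osteoclast sum was raised in the same library too (366 CPM against 103 to 121 CPM in the other 3). The part of those cells was not tested. The change from day 0 to day 3 was 0.25 (SE 0.64, edgeR adjusted p 0.766) in control and 2.08 (SE 0.67, edgeR adjusted p 0.0161) in cKO cultures, and the latter was 0.61 without replicate 4. That cKO call was lost without cKO day 0 replicate 1 or 2, with edgeR adjusted p of 0.0522 and 0.0538.

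Igfbp2 and Igfbp3, binding proteins found in the circulation and in many tissues, were not called for genotype in the cultures. Igfbp2 (ENSMUSG00000039323; chromosome 1, 72824503 to 72852474) had 83.8, 65.3 and 32.1 CPM in control and 40.6, 60.5 and 68.4 CPM in cKO replicates at day 0, with overlapping groups (log2 fold change -0.10, SE 0.30, edgeR adjusted p 0.795). Its day 3 values were 3.29, 33.0, 34.3 and 38.4 CPM in control and 56.6, 108, 82.1 and 69.2 CPM in cKO replicates, and every cKO library was above every control. The log2 fold change of 1.55 (SE 0.57, adjusted p 0.0522 by edgeR) just missed the threshold. It was called at 1.17 (edgeR adjusted p 0.00388) without control replicate 1, the lowest, and at 1.58 (edgeR adjusted p 0.0333) without cKO replicate 4, and was not called without any other single library (adjusted p up to 0.117). Its change from day 0 to day 3 was -1.14 (SE 0.54, edgeR adjusted p 0.0858) in control and 0.48 (SE 0.54, edgeR adjusted p 0.453) in cKO cultures, and the difference of 1.63 (SE 0.76, edgeR adjusted p 0.167) was not called.

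Igfbp3 (ENSMUSG00000020427; chromosome 11, 7206086 to 7213923) was near 1 CPM in all untreated cultures, at 1.16, 0.909 and 0.531 CPM in control and 1.08, 1.19 and 1.12 CPM in cKO replicates (log2 fold change 0.38, SE 0.27, edgeR adjusted p 0.241). At day 3 it had 26.6, 7.44, 6.97 and 7.25 CPM in control and 26.8, 24.8, 23.8 and 14.6 CPM in cKO replicates. Control replicate 1 was as high as the highest cKO library, and the other 3 controls were below all cKO libraries. The log2 fold change of 0.92 (SE 0.45, adjusted p 0.127 by edgeR) became 1.64 (edgeR adjusted p 9.21e-04) without control replicate 1, the same library that had the lowest Igfbp2, and ran from 0.72 to 1.08 without any other single library. Igfbp3 rose from day 0 to day 3 in both genotypes, by 3.78 in control (SE 0.52, edgeR adjusted p 4.62e-05) and 4.31 in cKO cultures (SE 0.52, edgeR adjusted p 1.37e-05). The difference of 0.52 (SE 0.67, edgeR adjusted p 0.648) was 1.26 with an edgeR adjusted p of 0.0328 without control day 3 replicate 1 and 0.26 without control day 0 replicate 1.

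**Figure D3:**
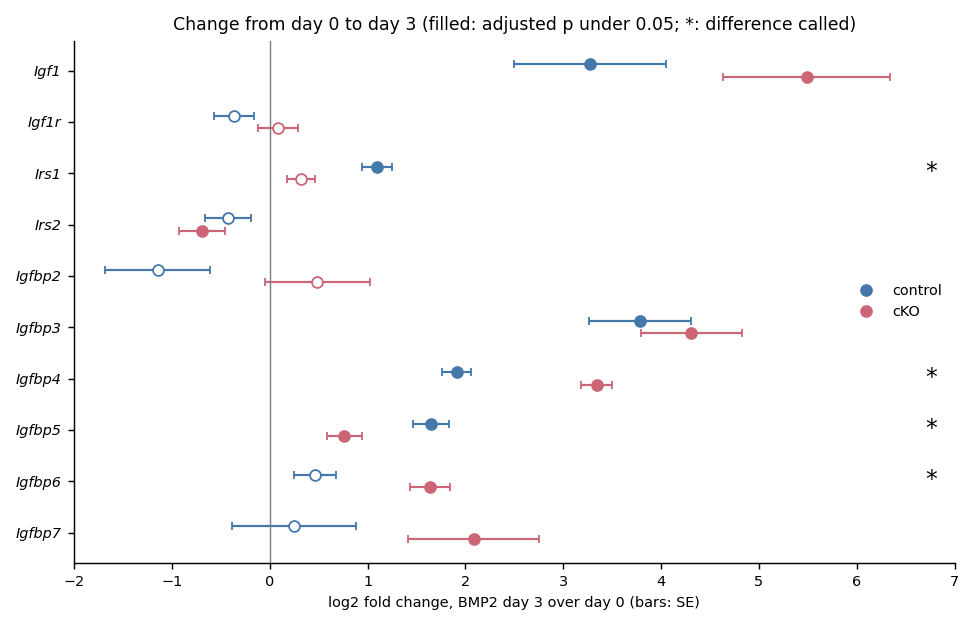
Log2 change from day 0 to day 3 for each gene in control (blue) and cKO (red) cultures, with bars of 1 SE, from 1 fit of 14 samples; filled symbols have an adjusted p under 0.05, and an asterisk marks a called difference between genotypes. The control symbol lies to the right for Irs1 and Igfbp5 and the cKO symbol to the right for Igfbp4 and Igfbp6.

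Over the change from day 0 to day 3, 5 of the 10 members rose and 0 fell in control cultures (Igf1, Irs1, Igfbp3, Igfbp4 and Igfbp5), against 56.9% of all genes called, 28.1% higher and 28.8% lower. In cKO cultures 6 rose (Igf1, Igfbp3, Igfbp4, Igfbp5, Igfbp6 and Igfbp7) and 1 fell (Irs2), against 62.2% of all genes called, 32.4% higher and 29.8% lower. The libraries of the days did not overlap for 6 members in control cultures (those called, and Irs2) and 6 in cKO cultures (those that rose), against 64.0% and 62.5% of all genes. Day, BMP2 and count table changed together, so these changes have no single source. The genotype difference in the change was called for 4 of 10 members, 2 in each direction, against 16.8% of all genes (9.93% higher and 6.89% lower). The median of that difference was 0.85 for the members and 0.02 for all genes tested. With 1 library left out the difference was as low as 0.84 for Igf1 (2.22 with all) and 0.36 for Igfbp7 (1.84 with all). For Igfbp3 it was as high as 1.26 (0.52 with all), and the median was not recomputed.

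The mix of binding protein transcripts differed between genotypes after BMP2. As a share of the summed level per kilobase of the 6 binding proteins, Igfbp5 made up 65.3 to 75.8% in the 4 control cultures at day 3, and 39.0, 34.7 and 40.9% in cKO replicates 1 to 3. In cKO replicate 4 it was 23.6%. The Igfbp4 share was 20.3, 18.9, 14.7 and 22.1% in control replicates 1 to 4 and 37.2, 38.9 and 36.1% in cKO replicates 1 to 3, and it was 15.3%, inside the control range, in cKO replicate 4, where Igfbp7 made up 56.2%. The summed level itself was 622 to 1028 CPM per kb in control and 763 to 829 CPM per kb in cKO replicates 1 to 3, and 1503 in replicate 4. At day 0 the Igfbp5 share ran from 55.6 to 61.9% in control cultures and from 54.4 to 61.2% in cKO cultures, while the Igfbp4 share was 12.5 to 13.3% against 8.23 to 9.01%. The shares were computed from the levels already tested and carry no test of their own.

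**Figure D4:**
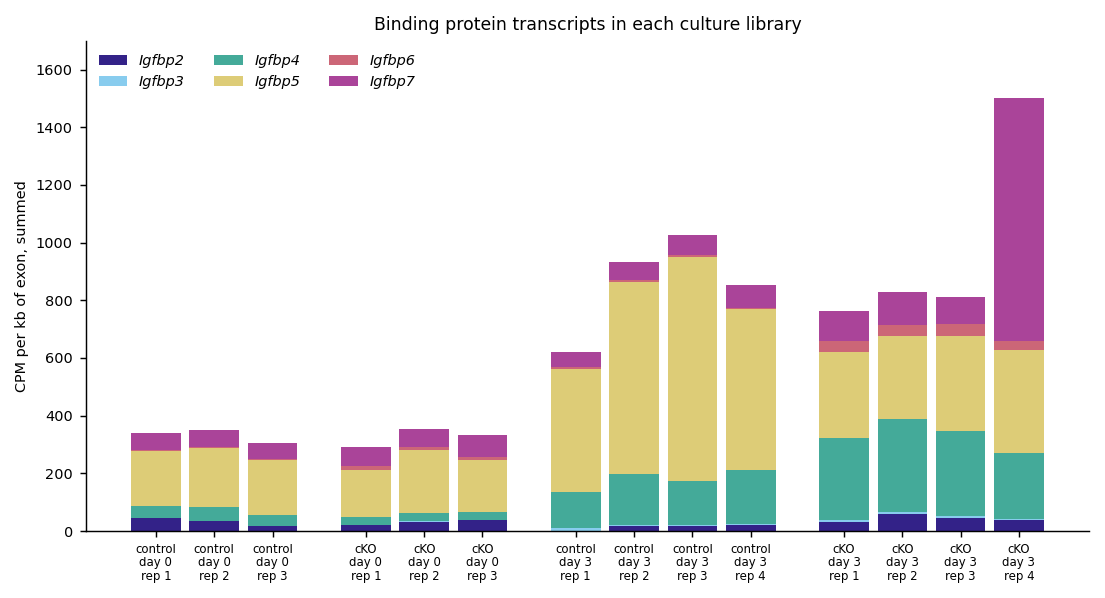
Level of the 6 binding protein transcripts in each of the 14 culture libraries, in CPM per kb of exon, stacked. Igfbp5 makes up 65.3 to 75.8% of the day 3 control bars, and cKO day 3 replicate 4 differs from the other 3 cKO libraries by its Igfbp7 share of 56.2%.

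In cartilage the test called 0 of 9 members, and edgeR's unadjusted p was under 0.05 for 4 (Igf1r, Irs1, Igfbp3 and Igfbp6). The share of all genes under that unadjusted cut was not computed, so these 4 have no share to be read against. DESeq2 also called 0 of the 10. Igfbp2 did not pass the filter on low counts and had 4.27 to 14.9 CPM in control and 5.04 to 24.1 CPM in cKO samples. In the estimated counts of the same libraries, 1 of 10 members was called, Igf1r, against 6.74% of all genes. The groups did not overlap for 2 members, Igf1r and Irs1, against 13.5% of all genes tested.

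Igf1r had 190, 197, 160 and 165 CPM in control and 153, 107, 120 and 142 CPM in cKO cartilage replicates 1 to 4, a log2 fold change of -0.44 (SE 0.14, adjusted p 0.0747 by edgeR). In the estimated counts it had 136 to 169 against 88.6 to 125 CPM, a log2 fold change of -0.53 (SE 0.14, adjusted p 0.0343 by edgeR). Irs1 was low in cartilage, with 16.5, 14.5, 11.0 and 11.3 CPM in control and 6.72, 10.5, 7.14 and 8.61 CPM in cKO samples, from 8 to 22 counts per library. Its log2 fold change was -0.69 (SE 0.27, edgeR adjusted p 0.151) and -0.41 (SE 0.21, edgeR adjusted p 0.275) in the estimated counts. Irs1 was thus lower in every cKO library than in every control in all 3 settings, and passed the test in the 2 culture settings. Irs2 overlapped, at 41.3 to 73.4 CPM in control and 49.9 to 61.6 CPM in cKO samples (log2 fold change 0.05, SE 0.17, edgeR adjusted p 0.891).

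Igf1 in cartilage was 179, 242, 189 and 344 CPM in control and 94.9, 294, 524 and 182 CPM in cKO replicates 1 to 4. Both the lowest and the highest value were from cKO libraries, and the log2 fold change of 0.14 (SE 0.33, adjusted p 0.833 by edgeR) took either sign when 1 library was left out (-0.29 to 0.42). Beside these levels, the summed level of 7 fibroblast and perichondrium markers was 32450, 52590, 44720 and 62900 CPM in control and 17310, 33520, 39500 and 21540 CPM in cKO replicates 1 to 4. Within each genotype the 4 libraries had the same order in Igf1 as in this sum. The order was also that of the macrophage and osteoclast sum (6 genes: 141, 446, 334 and 480 CPM in control and 66.3, 105, 133 and 82.7 CPM in cKO samples), so it was not particular to fibroblast markers, and all these measures share each library's dissection and depth. None of the other 9 marker sums had the order of Igf1 in both genotypes. Igfbp4 had the same order as the sum within the controls (275, 374, 327 and 470 CPM) and differed from it within the cKO samples (208, 476, 435 and 255 CPM) in that replicate 2 was above replicate 3. The part of those cells in either level was not tested.

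**Figure D5:**
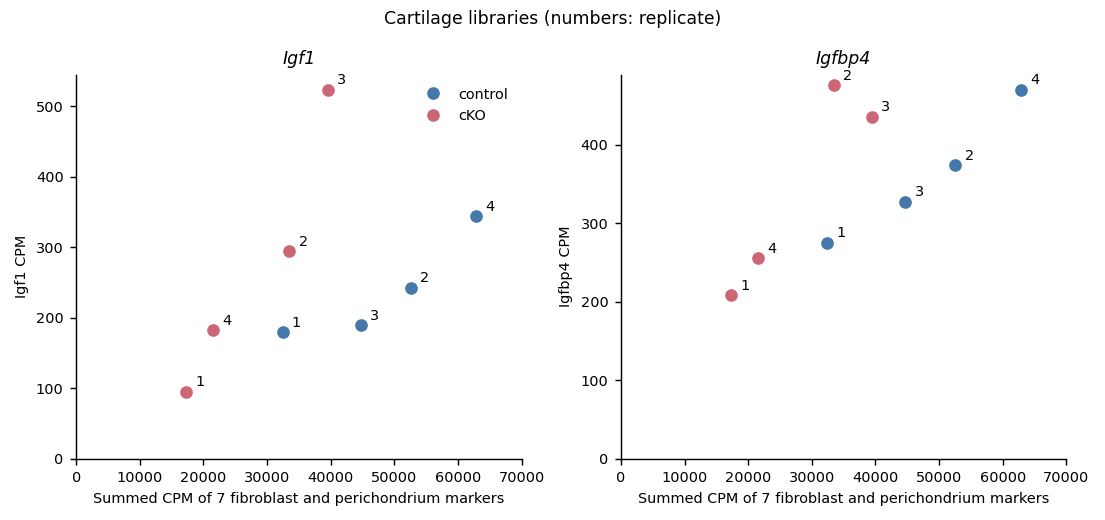
Igf1 (left) and Igfbp4 (right) in CPM against the summed CPM of 7 fibroblast and perichondrium markers in the 8 cartilage libraries (blue, control; red, cKO; numbers, replicate). Control replicates 1 and 3 (marker sums of 32450 and 44720 CPM) lie below cKO replicates 2 and 3 (33520 and 39500 CPM) in both panels.

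The binding proteins in cartilage overlapped between genotypes. Igfbp6 had 15.8, 29.0, 18.3 and 34.5 CPM in control and 28.6, 42.9, 61.6 and 31.0 CPM in cKO samples, a log2 fold change of 0.71 (SE 0.26, adjusted p 0.130 by edgeR) whose sign was that of both culture days. Igfbp3 had 80.3, 84.5, 74.3 and 148 CPM in control and 49.5, 99.7, 70.5 and 47.4 CPM in cKO samples (log2 fold change -0.55, SE 0.25, edgeR adjusted p 0.216), and was called at -0.88 (edgeR adjusted p 0.0260) without cKO replicate 2 but was -0.24 (edgeR adjusted p 0.605) without control replicate 4, the highest control. With no filter on low counts Igfbp6 was called at 0.67 (edgeR adjusted p 0.0286) and Igfbp3 at -0.59 (edgeR adjusted p 0.0137). Igfbp7 was the most counted member, at 910 to 1302 CPM in control and 1016 to 1329 CPM in cKO samples (log2 fold change 0.08, SE 0.15, edgeR adjusted p 0.789). Igfbp4 (log2 fold change -0.07, SE 0.23, edgeR adjusted p 0.890) and Igfbp5 (-0.04, SE 0.19, edgeR adjusted p 0.915) were not called, and Igfbp5 had 267 to 464 CPM in control and 234 to 381 CPM in cKO samples. A genotype effect that differed between females and males was called for 0 of 10 members, against 0.0103% of all genes tested. Irs2 had the smallest unadjusted edgeR p among the members (0.0579; difference, female minus male, 0.63, SE 0.31, edgeR adjusted p 0.994).

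Of 65 other genes of the pathway, 60 could be tested at day 0, where 16 were higher and 30 lower in cKO cultures, against 33.0% and 31.6% of all genes. At day 3 60 were tested, with 13 higher and 22 lower, against 25.5% and 22.6% of all genes. In cartilage 56 were tested, with 4 higher and 4 lower, against 3.15% and 3.04%. By group, the other ligands, receptors and carriers had 4 lower of 4 tested at day 0, 2 lower of 4 at day 3, and 1 higher and 1 lower of 4 in cartilage. The FOXO factors and their targets, which AKT keeps in check, had 6 lower and 2 higher of 9 at day 0 and 5 lower and 1 higher of 9 at day 3. In cartilage they had 0 lower and 1 higher of 8. Of 19 genes of PI3 kinase, AKT and mTOR signalling, 6 were higher and 9 lower at day 0, 5 higher and 5 lower at day 3, and 1 of 17 tested was higher in cartilage. Proteases of the binding proteins and their inhibitors had 3 higher and 5 lower of 12 at day 0, 3 higher and 4 lower of 11 at day 3, and 1 higher and 2 lower of 11 in cartilage. Adaptors outside the members had 4 higher and 2 lower of 8 at day 0, 2 higher and 3 lower of 9 at day 3, and 1 lower of 8 in cartilage. The growth hormone axis had 1 higher and 4 lower of 8 at day 0, 2 higher and 3 lower of 8 at day 3, and 0 called of 8 in cartilage.

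The called pathway genes of largest change at day 0 were Igf2 (log2 fold change -2.64), the binding protein protease Pappa2 (-2.44), the transcription factors Foxo4 (-1.63) and Klf15 (-1.62), the PI3 kinase regulatory subunit Pik3r3 (1.60) and Stc2 (-1.29), which encodes an inhibitor of the pappalysin proteases. At day 3 they were Klf15 (-2.11), Stc2 (-1.72), the secreted protease Htra1 (1.62), the inhibitory adaptor Grb10 (-1.57), the AKT-binding pseudokinase Trib3 (-1.51) and Socs2 (-1.44), which damps growth hormone signalling. In cartilage they were Igfals (2.13), which encodes the acid-labile subunit that carries IGFs in the blood, Trib3 (1.70), Pappa2 (0.85), Tmem219 (-0.77), which encodes a receptor of IGFBP3, the IGF2 scavenger Igf2r (-0.65) and the protease Mmp2 (-0.65). The edgeR adjusted p was at most 0.00202 for those at day 0 and day 3 and 5.60e-05 to 0.0442 for those in cartilage. Igfals had 5.50 to 6.75 CPM in control and 21.4 to 31.9 CPM in cKO cartilage, with no overlap. In the cultures it went the other way, with 1.57 to 2.27 against 0.931 to 1.15 CPM at day 0 (log2 fold change -0.88, edgeR adjusted p 0.00288) and 3.50 to 4.51 against 0.404 to 2.82 CPM at day 3 (-1.08, edgeR adjusted p 0.0713, not called). Stc2 had 221 to 229 against 88.1 to 101 CPM at day 0 and 41.6 to 91.9 against 15.9 to 26.6 CPM at day 3. Trib3 had opposite signs at day 3 and in cartilage, as did Pappa2 at day 0 and in cartilage, and the differences between settings were not tested. Pappa2, Pik3r3 and Igf2 share bases with another gene on the same strand, and Htra1, Igf2r and Tmem219 with one on the opposite strand, so reads may have been split between them.

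Over the 14 cultures, the genes whose log2 level ran most alike with Igf1 were Tmem59, Nradd and Psap (Pearson r 0.985, 0.984 and 0.983), among 12287 genes ranked. For Igf1r they were Fat1, Fam198b and Lrrk2 (0.960, 0.928 and 0.920), and for Igfbp5 they were Rgmb, Tbc1d24 and Zfp780b (0.982, 0.976 and 0.969). These values describe 14 libraries in 4 groups that differ in day, genotype and depth. They include cKO day 3 replicate 4, which stood far above its group in Igf1 and Igf1r, and were not recomputed without it. The genes named are the highest of all those ranked, so high values follow in part from that choice.

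Some members share bases with other genes on the opposite strand. Exons of Igfbp7 overlap those of Polr2b, those of Irs2 overlap 9530052E02Rik and those of Irs1 overlap Gm9747, which had 0 counts in the cultures. The culture kit keeps strand, but whether the counting used it is not given in the sources used here.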

How the data were processed

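RNA was sequenced from 14 chondrocyte cultures and 8 cartilage samples of mice. Total RNA of the cultures went into stranded libraries, and cartilage RNA into libraries made by BRB-seq, a barcoded 3′ tag method with molecular identifiers, per the labels' protocols. For the cultures the authors deposited expected (estimated) counts per gene, in 1 table for each day, which were rounded to whole numbers here. The tools that made them are not given in the sources used here. For cartilage the authors deposited whole-number counts per gene, used as the main values, and estimated counts of the same libraries, used as an alternative. The submitters' processing notes name the build GRCm38 for all samples and, for cartilage, UMI-tools 1.1.1, Trim Galore 0.6.7, HISAT2 2.2.1, featureCounts 2.0.1 and DESeq2 1.34.0. Ribosomal RNA held 9.96 to 23.6% of the whole-number cartilage counts. All per-sample columns were used (0 left out). Gene positions came from GENCODE on GRCm38 and promoter windows from RefSeq on GRCm38.p6.

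Genes were tested with edgeR 4.0.16 (quasi-likelihood test, TMM scaling, filterByExpr with 10 counts and 15 in total) in R 4.3.3, with Benjamini-Hochberg adjustment over all genes tested and a threshold of 0.05. Genotype was fitted at day 0 (3 against 3), at day 3 (4 against 4) and in cartilage (4 against 4, sex as a covariate). A fit of the 14 cultures in 4 groups gave the changes from day 0 to day 3 and their difference, and a fit of cartilage by genotype and sex gave the sex difference. SE was obtained from each log2 fold change and its F statistic. Levels are CPM scaled by TMM factors, and in the cultures also per kb of merged exons (3′ tags were not divided by length). A floor of 3 counts was worth up to 0.0719 CPM in untreated cultures, up to 0.208 CPM after BMP2 and up to 2.73 CPM in cartilage, for counting error only.

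The named genes are all 10 members, Dnmt1, Igf2, up to 6 called pathway genes of largest change per genotype comparison whose mean log2 CPM was 1 or more, and the 3 genes most alike in pattern to Igf1, Igf1r and Igfbp5. Acta2 was named after its value was seen. The members, the gene lists and the tests were chosen with earlier results of these data known. Alternatives were RLE factors, library totals alone, no filter, DESeq2 1.42.0, a replicate block, a joint fit of all cultures, estimated cartilage counts, no sex covariate, no ribosomal RNA rows and leaving out each library. The steps were tested on simulated data.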

Additional observations from a re-analysis of the deposited data

Results flagged for a closer look

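In 9 of 40 groups of 4 libraries, 1 library lay apart from the other 3 by Dixon's gap test, which chance does in about 1 of 20 groups of normally spread values. The 40 groups are 10 genes measured in the same libraries and are not independent, so 9 of 40 cannot be weighed against that rate. The cKO day 3 replicate 4 accounted for 5 of the 9: it was the highest of its group for Igf1 (144.7 CPM), Igf1r (226 CPM), Irs2 (53.3 CPM) and Igfbp7 (1022 CPM) and the lowest for Irs1 (113 CPM). Control day 3 replicate 1 was the lowest of its group for Igfbp2 (3.29 CPM) and the highest for Igfbp3 (26.6 CPM). Control cartilage replicate 4 was the highest of its group for Igfbp3 (148 CPM) and Igfbp5 (464 CPM), and it also had the highest fibroblast and perichondrium marker sum (62900 CPM).

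The genotype effect differed between day 3 and day 0, by a test of the difference, for Irs1 (-0.78 on the log2 scale), Igfbp4 (1.43), Igfbp5 (-0.88) and Igfbp6 (1.17). Day, BMP2 and count table change together in this difference, and their parts cannot be told apart.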

How the results depend on the processing

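Of 978 values recomputed for single members, 898 kept their direction and their side of the threshold, 28 lost a call, 28 gained one and 24 changed sign. Under library totals alone the median of all genes moved to 0.12 at day 0 and 0.12 in the control change, and the share of called genes that were higher rose from 51.1 to 63.6% at day 0, from 50.9 to 64.9% in cartilage (64.7% by DESeq2) and from 49.4 to 61.5% in the control change. Relative to that shift at day 0 the sign changes of Igfbp2 (0.0092) and Igfbp5 (0.055) there are no rise, and Igf1r at day 0 (0.17), Igfbp2 at day 3 (1.61), the control change of Igfbp6 (0.59) and the cKO change of Irs1 (0.42) gained a call.

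The joint fit of 14 cultures called 6260 of 14909 genes at day 0 and 2 of 10 members. At day 3 it called 8 of 10 members, with Igf1 (1.70), Igf1r (0.52) and Igfbp2 (1.53) gained. The number of all genes that this fit called at day 3 is not given here, so the 8 have no share to be read against. Without a filter cartilage gave 1044 of 23911 genes and 2 members, Igfbp3 and Igfbp6, and the sex difference 33 genes. Estimated counts gave 1 member in cartilage and 2 genes for the sex difference. Leaving out 1 library gave 362 to 630 genes and 0 to 1 members in cartilage, 1591 to 4051 genes and 2 to 5 members for the difference between days (4051 without cKO day 3 replicate 4), and 1 to 6 genes for the sex difference. DESeq2 gave no adjusted p for the Igf1 changes from day 0 to day 3, Igfbp7 at day 3 or its cKO change.

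Same-numbered replicates did not deviate together in all pairs of any comparison (correlations -0.23 to 0.26). With 3 or 4 libraries a group this cannot exclude that the numbers pair some samples, and the main fits treated them as unpaired. With a replicate block, added after seeing the data for the sex difference alone, that difference had 4 genes. In the block fits Igfbp2 (1.85) and Igfbp3 (1.14) at day 3 and the changes of Irs2 (-0.56, control), Igfbp6 (0.54, control) and Irs1 (0.39, cKO) gained a call. Igfbp7 at day 3 (1.37) and its cKO change (0.94) lost it, and the sign changed for Igf1 in cartilage (-0.010), for Igfbp7 in the control change (-0.14) and for Igf1r in the cKO change (-0.033). No sample set correlated best with its own number throughout.

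Sign changes with 1 library left out came from values near 0 except where stated above. At day 0 they ran from -0.41 to 0.21 for Igfbp2 and from -0.17 to 0.035 for Igfbp5. At day 3 Irs2 ran from -0.21 to 0.35. In cartilage Igf1 ran from -0.29 to 0.42, Irs2 from -0.057 to 0.20, Igfbp4 from -0.38 to 0.093, Igfbp5 from -0.23 to 0.15 and Igfbp7 from -0.044 to 0.15. Irs2 in cartilage was -0.036 in the estimated counts, and the cKO change of Igf1r ran from -0.19 to 0.17. The cause of these changes was not tested. Depth limits cartilage most, where Irs1 had 8 to 22 counts a library.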

Other observations

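Igf2 gave far lower levels in the whole-number cartilage counts than in the estimated counts of the same libraries. The whole-number levels were 16.5 to 41.3 CPM in control and 3.50 to 14.3 CPM in cKO samples, and the estimated levels were 8726 to 11760 CPM in control and 2958 to 3994 CPM in cKO samples. Both tables put the cKO libraries below the controls without overlap. Igf2 shares 16048 bases with Gm49394 on the same strand. The members differed far less between the tables: Igf1, for example, averaged 239 CPM in control and 274 CPM in cKO samples in whole-number counts, and 198 and 224 CPM in estimated counts.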
